A study of Mus musculus with 8 samples.

Results

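The genes described here build the axonal and dendritic cytoskeleton of neurons, and there are 10 of them among the 38031 genes of the count table: *Nefl*, *Nefm*, *Nefh*, *Ina*, *Map1a*, *Map1b*, *Map2*, *Mapt*, *Tubb3* and *Stmn2*. They were chosen by name, and each gene was represented by its transcript with the lowest Ensembl number. RNA was taken from the primary motor cortex (M1) of male Swiss Webster mice that had received lentivirus at P21 to P25 and were aged P49 to P53 at dissection. The virus carried an mCherry reporter and either a *Fezf2 shRNA* (4 libraries) or a *non-silencing shRNA* (4 libraries, the controls). The *Synapsin I* promoter drove it in neurons, while the tissue dissected by mCherry held every cortical cell type, so that changes in transduced neurons were diluted by all other cells. In such bulk tissue, fewer cells of a type and less RNA per cell cannot be told apart. With 4 mice injected per virus, each library was taken as 1 mouse.

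Neurofilaments are the intermediate filaments of axons. The light, medium and heavy chains assemble with α-internexin, and their amount sets axon calibre, with high levels in large projection neurons such as those of cortical layer 5. Microtubules are polymers of tubulin that are stabilized by microtubule-associated proteins, MAP2 mainly in dendrites and tau mainly in axons, and destabilized by stathmins. *Fezf2* encodes a transcription factor that specifies layer 5 projection neurons, and the comparison asks which of these genes differed when it was reduced in the mature cortex.

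The targeted gene was examined first. *Fezf2* had 688, 767, 735 and 702 normalized counts in the control libraries and 621, 583, 568 and 592 in the *Fezf2 shRNA*-treated libraries. The groups did not overlap, and their means were 722.9 ± 35.4 and 591.1 ± 22.1 (SD, 4 libraries each). On the log2 scale the difference was -0.29 ± 0.076 (SE), which did not pass the threshold in edgeR's quasi-likelihood test (Benjamini-Hochberg adjusted p = 0.0765). It passed in DESeq2 with and without its prior (adjusted p = 0.0256 in both). With the gene-length offset the change was -0.18 (adjusted p = 0.434 in edgeR), and with the replicate number as a block the adjusted p was 0.126.

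The 19-nt sense sequence of the shRNA is shown to place the cytoskeleton genes beside its target. All of it was found in *Fezf2*. The longest run of it in any annotated transcript of the 10 genes was 10 nt, in *Map2*, and 2.9% of the 55450 annotated genes held a run of at least that length. Runs of 9 nt were found in *Mapt* and *Nefm*, as in 10.5% of genes at that length or more, and the other genes had 6 to 8 nt. Capitals mark the shared run.
Fezf2: GGGAACTACAAGAATCACA
Map2: ggGAACTACAAGaatcaca
Mapt: gGGAACTACAagaatcaca
Nefm: gggaactacAAGAATCACa

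None of the 10 genes passed the threshold, for which a gene needed a log2 fold change of 0.2 or more in size and an adjusted p of 0.05 or less. Of the 9959 genes tested, 2.19% passed, 2.06% increased and 0.131% decreased. DESeq2 with and without its prior also called 0 of the 10 genes, and edgeR gave an unadjusted p under 0.05 for 1, *Ina*. The log2 fold changes ran from -0.20 to 0.11, with 5 above 0 and 5 below it (56.6% of all genes tested were below 0), and their median of -0.03 was that of all genes tested. The 4 neurofilament and internexin genes and *Tubb3* were the 5 with values below 0. The groups did not overlap for 1 gene, *Ina*, which was lower after *Fezf2 shRNA*. Over the genes tested this held for 11.8%, of which 7.41% were higher and 4.41% lower as shares of all genes tested.

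**Figure D1:**
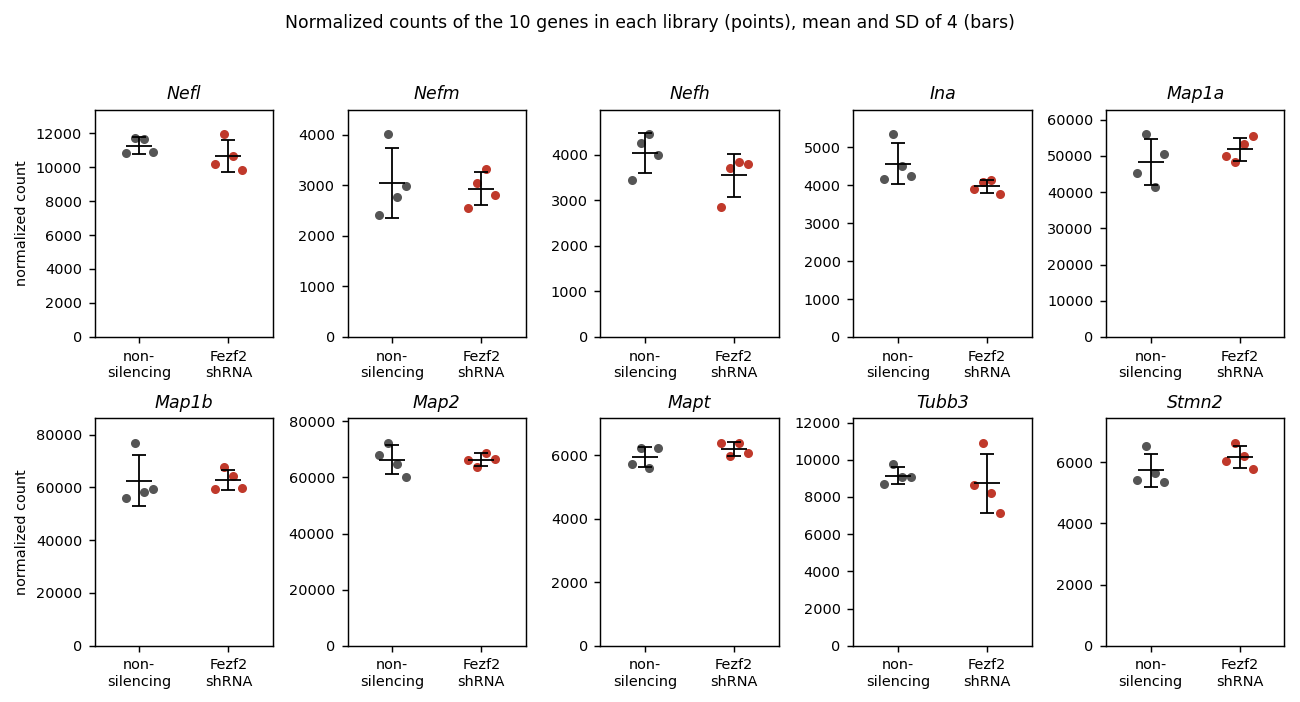
Normalized counts (y axis, from 0) of the 10 genes in each control (grey) and *Fezf2 shRNA*-treated (red) library, with the mean and SD of 4 libraries. Only for *Ina* do all red points lie below all grey ones, and single libraries stand apart from the other 3 of their group for *Nefh* (2851) and *Map1b* (76962).

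Among the neurofilament genes, *Ina* (α-internexin, chromosome 19 from 47014698 to 47025327, GRCm38) had the largest difference. It had 4175, 5351, 4494 and 4243 normalized counts in the controls and 3889, 4093, 4142 and 3767 after *Fezf2 shRNA*. Every treated library was below every control, although the highest treated library was only just below the lowest control. The log2 fold change was -0.20 ± 0.082 (SE, adjusted p = 0.217), and the exact two-sided permutation test gave p = 0.0286, the smallest that 4 against 4 libraries allow. Without control replicate 2, the highest library, the log2 fold change was -0.12.

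*Nefh* encodes the heavy chain, whose phosphorylated tail spaces the filaments. Its control libraries had 3448, 4253, 4453 and 3999 normalized counts and its treated libraries 2851, 3714, 3829 and 3785. The groups overlapped through control replicate 1. On the log2 scale the change was -0.19 ± 0.107 (SE, adjusted p = 0.337), and it was -0.10 without *Fezf2 shRNA* replicate 1, the lowest library.

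*Nefl* encodes the light chain, the core subunit on which the other chains assemble. It had 10810, 11727, 11643 and 10893 normalized counts in the controls and 10201, 11947, 10635 and 9822 after *Fezf2 shRNA*, so that a treated library was the highest of all 8. Its log2 fold change was -0.08 ± 0.0703 (SE, adjusted p = 0.534), and it ranged from -0.14 without *Fezf2 shRNA* replicate 2 to -0.04 without *Fezf2 shRNA* replicate 4.

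*Nefm*, the medium chain, was the most variable neurofilament gene in the controls, with 2404, 4011, 2774 and 2978 normalized counts and a coefficient of variation of 22.6%. The treated libraries had 2550, 3045, 3320 and 2801, all within the control range. The log2 fold change was -0.05 ± 0.142 (SE, adjusted p = 0.854), and leaving out control replicate 2 turned it to 0.11. *Nefl* and *Nefm* are neighbours on chromosome 14, and the wider of the 2 annotated *Nefm* intervals (42257 bp) contains all of *Nefl*. Counts in that wider interval therefore hold the reads of *Nefl*, and the narrower interval of 5564 bp was used.

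The RNA counts of the filament subunits were compared as log2 ratios within each library, which do not depend on how libraries were scaled. The protein composition of the filaments was not measured. *Nefm* to *Nefl* was -1.91 ± 0.274 in the control libraries and -1.87 ± 0.15 in the treated ones (SD of 4, exact permutation p = 0.771). *Nefh* to *Nefl* differed by -0.11 between the groups (exact permutation p = 0.4), and *Ina* to *Nefl* by -0.11 (exact permutation p = 0.114). Over the 6 ratios tested here and in the following paragraphs, the adjusted p values were 0.342 to 0.771.

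Of the microtubule-associated protein genes, *Map1a*, the adult form that binds microtubules in dendrites and axons, had 45171, 56053, 41453 and 50655 normalized counts in the controls. The treated libraries had 49932, 48268, 53385 and 55545, inside the control range. Its log2 fold change was 0.10 ± 0.0961 (SE, adjusted p = 0.581). It was 0.18 without control replicate 2, 0.06 when *Fezf2 shRNA* replicate 4 was left out and 0.04 without control replicate 3.

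*Map1b*, the related protein that is most abundant in growing axons, had 55978, 76962, 58188 and 59362 normalized counts in the controls and 59451, 67696, 64399 and 59846 after *Fezf2 shRNA*. Control replicate 2 was above the other 7 libraries. The log2 fold change was 0.01 ± 0.104 (SE, adjusted p = 0.986), and 0.12 without that library. The log2 ratio of *Map1b* to *Map1a* differed by -0.09 (exact permutation p = 0.4).

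*Map2* had the smallest difference of the 10 genes, with a log2 fold change of 0.00 ± 0.073 (SE, adjusted p = 0.998). The controls had 67971, 72393, 64948 and 60219 normalized counts, and the treated libraries 66359, 63646, 68895 and 66707, all inside the control range. *Mapt*, which encodes tau, had 5722, 6216, 5602 and 6217 in the controls and 6378, 5964, 6388 and 6066 after *Fezf2 shRNA*. Its log2 fold change was 0.06 ± 0.0589 (SE, adjusted p = 0.575), and that of the widest annotated *Mapt* interval was -0.07, the opposite sign. The log2 ratio of *Map2* to *Mapt* differed by -0.06 (exact permutation p = 0.457).

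*Tubb3* encodes the neuronal β-tubulin isotype. Its controls were close together, with 8680, 9757, 9058 and 9087 normalized counts, and its treated libraries were spread from 7144 to 10919 (8630, 10919, 8232 and 7144). The coefficients of variation were 4.9% and 18.2%. The log2 fold change was -0.07 ± 0.11 (SE, adjusted p = 0.76) and ranged from -0.19 without *Fezf2 shRNA* replicate 2 to 0.02 without *Fezf2 shRNA* replicate 4. *Tubb3* lies inside the annotated readthrough gene *Gm20388*, whose counts contain its reads. Shorter overlaps on the opposite strand, which the counts do not separate, included 456 bp of *Ina* with *Nt5c2*, 2306 bp of *Map1a* with *Gm14978* and 272 bp with *Ppip5k1*, 6521 bp of *Map2* with *Gm10558* and 8460 bp of *Mapt* with *Gm11659*.

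*Stmn2* encodes a stathmin that binds tubulin in growing and regenerating axons. It had 5404, 6517, 5660 and 5341 normalized counts in the controls and 6051, 6638, 6210 and 5769 after *Fezf2 shRNA*. Control replicate 2 exceeded 3 of the treated libraries. The log2 fold change was 0.11 ± 0.0757 (SE, adjusted p = 0.448). It was 0.17 without control replicate 2 (edgeR adjusted p = 0.147) and 0.07 without *Fezf2 shRNA* replicate 2. The ratio of *Stmn2* to *Tubb3* had the largest difference of the 6 ratios, 0.19 on the log2 scale, with overlapping groups (exact permutation p = 0.114). A ratio does not remove gene length, and these genes span 52247 and 10592 bp. With the gene-length offset the log2 fold change of *Stmn2* was 0.08 and that of *Tubb3* 0.02.

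Single libraries decided several of these extremes. Control replicate 2 was the highest library for 5 of the 10 genes and *Fezf2 shRNA* replicate 2 for 3, while *Fezf2 shRNA* replicate 4 was the lowest for 3.

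The levels of the genes were compared per length of exon. CPM per kb of exon, averaged over the 8 libraries, placed *Tubb3* first (85), followed by *Map2* (74.9), *Map1a* (73.1), *Map1b* (70.3) and *Nefl* (57.6). The ranges of the 8 libraries overlapped between each of these 5 genes and the next. The range of *Nefl* (51.6 to 62.8) lay above that of *Mapt* (28.7 to 32.7), the only gap between neighbours. *Mapt* (31.1) was followed by *Ina* (23.4), *Stmn2* (18.9), *Nefh* (16.9) and *Nefm* (15.9), each overlapping its neighbour. The counts cover introns as well as exons, which raises these levels for genes with long introns. The exon length was that of all annotated transcripts of a gene within the interval, which lowers them. It was 15736 bp for *Map2* and 5602 bp for *Stmn2*, against 5195 and 2073 bp in the transcripts used. The order of the genes therefore depends on the length taken. For *Mapt* the interval leaves out a 3′ exonic part of the longest transcript. That part held more reads than the interval used. Its mean normalized counts were 7556 in the controls and 6691 after *Fezf2 shRNA*, against 5939 and 6199 in the interval.

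The length of the counted interval was related to the fold change over all genes. The median log2 fold change was -0.12 for genes under 10 kb and -0.075 for genes of 10 to 30 kb. It was 0.15 for the span class that holds *Map2*. The neurofilament genes and *Tubb3* spanned 5233 to 10630 bp and *Map2* 190920 bp. *Ina* and *Tubb3* fell in the class of 10 to 30 kb. With an offset for gene length, the log2 fold change of *Ina* was -0.11 and of *Nefh* -0.09, while *Nefl* (0.02), *Nefm* (0.05), *Mapt* (-0.03), *Map1b* (-0.08), *Map2* (-0.18) and *Tubb3* (0.02) changed sign. No gene of the 10 passed the threshold with the offset.

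**Figure D2:**
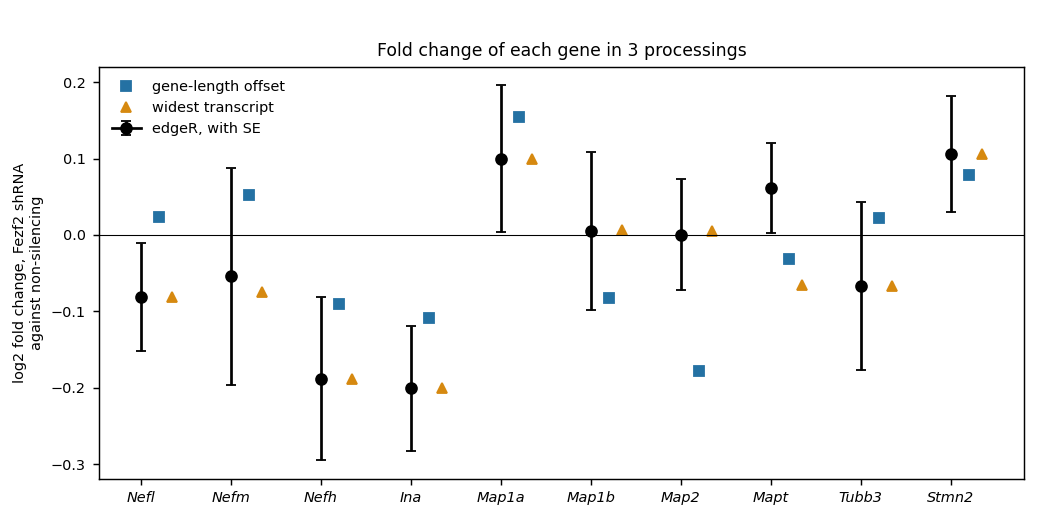
Log2 fold change (y axis) of the 10 genes in the edgeR fit with its standard error (black), with a gene-length offset (blue) and with the widest annotated interval (orange). The offset moves *Map2* from 0.00 to -0.18 and *Ina* from -0.20 to -0.11.

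Since an interval holds both exons and introns, parts of *Map2* and *Mapt* were read separately. The part of *Mapt* called 3′ exonic here (4065 bp) lies mostly at the 3′ end (chromosome 11, 104328220 to 104332090). It also holds a short piece at the 5′ end (104231390 to 104231583). This part had 7237, 7832, 7314 and 7843 normalized counts in the controls. After *Fezf2 shRNA* it had 6857, 7161, 6703 and 6041, and the groups did not overlap. Its log2 fold change was -0.09 ± 0.0652 (SE, adjusted p = 0.874) in the edgeR test with TMM factors of the exonic parts. It was -0.18 (adjusted p = 0.471) with the library sizes of the gene fit. The exonic part of *Map2* taken by the same rule (2911 bp) comes from a transcript annotated as a retained intron. It held 235 reads per kb, against 251 over the widest *Map2* interval. This part had 636, 744, 638 and 577 normalized counts in the controls. The treated libraries had 641, 704, 788 and 748, and the groups overlapped. Its log2 fold change was 0.24 ± 0.106 (SE, adjusted p = 0.797) in the same edgeR test. With the library sizes of the gene fit it was 0.15 (adjusted p = 0.589). Of 4028 exonic parts tested, 0% were increased or decreased in either scaling, and 241 had an unadjusted p under 0.05 with the first. Exonic parts were lower in general on the gene scale, with a median of -0.09, and 4.82% of them had treated libraries all below the controls against 1.09% all above.

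The 5′ part of *Mapt* (63344 bp, 0.6% exonic) had 2350, 2676, 2154 and 2468 normalized counts in the controls and 2644, 2708, 2986 and 2718 after *Fezf2 shRNA*, with 1 control inside the treated range. Its direction depended on the scaling. With TMM factors of parts of at most 1% exonic bases the log2 fold change was -0.12 ± 0.0933 (SE, adjusted p = 0.588), and with the library sizes of the gene fit it was 0.20 (adjusted p = 0.0935). The like part of *Map2* (205345 bp, 0.9% exonic) gave -0.11 ± 0.0747 (SE, adjusted p = 0.497) and 0.20 (adjusted p = 0.0881). With the first scaling 0.221% of 903 such parts were increased and 1.66% decreased, and with the second 45.5% were increased and 0.221% decreased. Among the 4262 parts with up to 5% exonic bases the increased shares were 0.375% and 14.9%, and the decreased shares 0.117% and 0.282%. A higher value of a mainly intronic part on the gene scale was therefore shared with much of the transcriptome.

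The following parts were chosen after their counts were seen and are described without a test. The first 76348 bp of *Map2* had 526, 629, 511 and 509 normalized counts on the gene scale in the controls and 705, 785, 773 and 765 after *Fezf2 shRNA*, which was 39.3% higher with no overlap. On that scale 38.4% of parts with at most 1% exonic bases had treated libraries all above the controls. A 661-bp exonic part of *Map2* had 5094 ± 635 and 4968 ± 297 (SD, n = 4 each), 2.48% lower with overlapping groups. The 2911-bp part of the retained-intron transcript described above went the other way, 11% higher on the gene scale with overlapping groups. It held 235 reads per kb against 7610 in the 661-bp part, so the 2 parts are not alike. A 50829-bp stretch at the 5′ end of *Mapt* was 28.3% higher with overlapping groups. The log2 ratio of the 5′ end to the 661-bp exonic part within a library, which needs no scaling, was 0.51 higher in *Map2*. For the 5′ part to the 3′ exonic part it was 0.38 higher in *Mapt*, with no overlap in either. Such ratios were higher over many genes: among 221 genes with a part of at most 1% exonic bases and an exonic part, the median difference was 0.37. These genes were read by their longest part of each kind, as *Mapt* was. The difference was at least that of *Mapt* in 47.5% of them, and the treated libraries were all above the controls in 26.2%. It was at least that of *Map2* in 14.5%, which sets unlike parts side by side, since the *Map2* parts were others. The longest *Map2* parts of these 2 kinds had log2 fold changes of 0.20 and 0.15 on the gene scale, and their ratio was not tested.

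**Figure D3:**
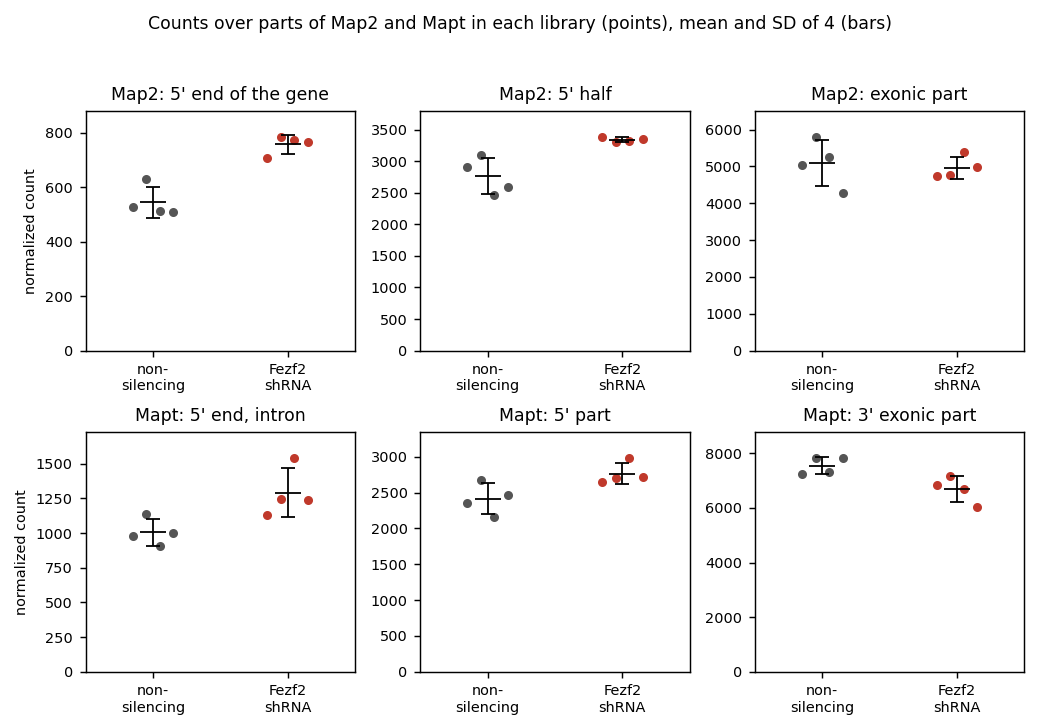
Normalized counts on the gene scale (y axis, from 0) over parts of *Map2* and *Mapt* in each control (grey) and *Fezf2 shRNA*-treated (red) library, with the mean and SD of 4 libraries. The means of the 5′ parts are higher after *Fezf2 shRNA* on this scale, with no overlap in *Map2* and overlap in *Mapt*, and the *Mapt* 3′ exonic part is lower, with 6041 to 7161 against 7237 to 7843.

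Other genes of the same pathways were read from 9 lists with 164 tested genes. Of these, 5 passed the threshold and all were increased, which was 3.05% against 2.06% of all genes tested, and the median log2 fold change was -0.04 against -0.03 for all genes tested. *Jakmip2*, from the list of other microtubule-associated protein genes, had 4205, 4738, 4298 and 4471 normalized counts in the controls and 5362, 5337, 5778 and 5622 after *Fezf2 shRNA* (log2 fold change 0.32 ± 0.0592, SE, edgeR adjusted p = 0.0275). *Nav2*, a microtubule-binding protein of growing neurites, rose by 0.43 (adjusted p = 0.0342), and *Kif16b*, a kinesin that carries endosomes, by 0.40 (adjusted p = 0.0273). *Agbl4*, which trims glutamates from tubulin, rose by 0.43 (adjusted p = 0.034), and *Ttll11*, which adds them, by 0.31 (adjusted p = 0.0378). These 5 genes spanned 89922 to 1259720 bp, 3 of them in the span class of *Map2*, in which 5.78% of genes were called. *Agbl4* was in the longest class, in which 24.6% were called, and *Nav2* in the class of 30 to 100 kb, in which 0.802% were. Of the lists' genes, 0 passed with the gene-length offset or with the replicate number as a block.

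The other tubulin, stathmin and intermediate filament genes gave no call. Of 16 genes tested in the tubulin list, which includes γ-tubulin complex genes, 14 were below 0, with a median of -0.09. Their median span was 6.2 kb, and all tested genes under 10 kb had a median of -0.12. The most abundant of the list, *Tuba1a* and *Tuba1b*, had -0.17 (adjusted p = 0.305) and -0.18 (adjusted p = 0.316) in edgeR's test. All 3 other stathmin genes were below 0, *Stmn1* with -0.17 (adjusted p = 0.192) and *Stmn3* with -0.20 (adjusted p = 0.242), opposite in sign to *Stmn2*. These stathmin genes had a median span of 8 kb and *Stmn2* spans 52247 bp. Of 7 other intermediate filament genes tested, 6 were below 0, among them *Gfap*, the astrocyte filament, with -0.32 (adjusted p = 0.503), and *Synm* with -0.06 (adjusted p = 0.574).

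The remaining lists were centred near 0. The 21 kinase genes that act on tau and neurofilaments had a median of 0.02, with *Mapk10* at 0.09. The 11 spectrin, ankyrin and adducin genes had a median of -0.01, with *Sptan1* at -0.07, and the 8 axon growth genes a median of 0.01, with *Basp1* at 0.02 and *Rtn4* at -0.09. None of these passed the threshold.

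**Figure D4:**
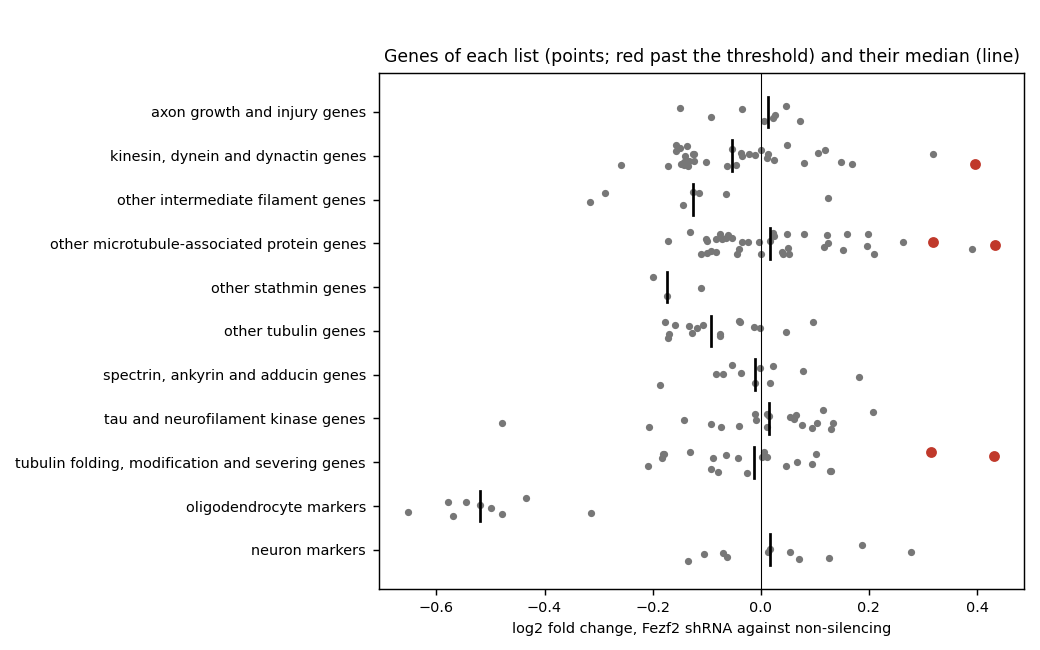
Log2 fold change (x axis) of each tested gene in 9 cytoskeleton and axon lists and 2 marker lists, with the list's median as a line and genes past the threshold in red. The 5 red points are all above 0, and the oligodendrocyte markers lie furthest below it, with a median of -0.52.

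The cell types in the tissue were read from their markers. All 9 tested oligodendrocyte markers were below 0, with a median log2 fold change of -0.52 and none past the threshold, and their summed level was 48183 to 79060 normalized counts after *Fezf2 shRNA* and 64941 to 117863 in the controls. *Mbp*, a major myelin protein, had -0.31 (adjusted p = 0.466) in edgeR's test. *Mapt* and several tubulin genes are also used by oligodendrocytes, and the part of this difference in their values was not tested. The 11 neuron markers had a median of 0.02, with summed levels of 236723 to 246536 after *Fezf2 shRNA* and 229533 to 255582 in the controls, *Snap25* at -0.06 and *Syt1* at 0.19. Medians were -0.15 for 5 oligodendrocyte precursor markers (*Cspg5* -0.15, *Gpr17* -0.31), -0.10 for 9 astrocyte markers (*Aldoc* -0.10, *Slc1a2* 0.11), 0.06 for 8 microglia markers (*Csf1r* 0.08, *P2ry12* 0.03) and -0.15 for 4 endothelial and pericyte markers (*Rgs5* -0.32, *Tek* 0.06), with none past the threshold.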

How the data were processed

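Total RNA libraries of 8 M1 samples were compared, 4 per treatment, grouped by their titles. The deposited counts are raw counts per Ensembl transcript that the authors made with TopHat2 2.1.1 (mm10) and bedtools 2.26.0, per the submitters' processing notes. Each count holds the reads over a transcript from start to end, introns and both strands included, so overlapping genes share reads. A deposited table of the authors' DESeq2 results (base means, fold changes, p values) was not used. Counts on genes totalled 54684016 to 58003814 per library, and the replicate spread limits the precision for these genes.

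Transcripts were mapped to genes with GENCODE M21. Genes above 8 CPM in 4 or more libraries were tested with edgeR 4.0.16 in R 4.3.3 (TMM, quasi-likelihood, Benjamini-Hochberg over all genes, no covariate). Its current quasi-likelihood fit was taken because it gave the 218 calls of an earlier re-analysis of these counts, not the authors' number, and the legacy fit is an alternative. Standard errors are the log2 fold change divided by the square root of F. Normalized counts are counts divided by effective library size, times its mean. Parts are transcript intervals or differences of nested ones, exonic with at least 80% exonic bases, intronic with at most 5%, with a mean of at least 100 reads. The limit of 1% and the library sizes of the gene fit for parts were added after the data were seen. The members and lists were chosen with earlier results of these data known. Named genes are the 10 members, *Fezf2*, in each list the 3 with the smallest p in each direction past the threshold or, with none, the 2 most abundant, and the 2 most abundant markers. Some genes under this rule are not reported here, but list counts and medians include them. Alternatives were DESeq2 1.42.0, other normalizations and filters, the replicate block, a gene-length offset, the widest transcript and leaving out each library. The steps were tested on simulated data.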

Additional observations from a re-analysis of the deposited data

Results flagged for a closer look

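In 8 of the 52 groups of 4 libraries examined, 1 library stood far from the other 3 relative to the group's range, and chance gives about 1 in 20 such groups. *Nefh* had 2851 normalized counts in *Fezf2 shRNA* replicate 1 against 3714 to 3829 in the others. *Map1b* had 76960 in control replicate 2 against 55980 to 59360. The 5′ end of *Map2* had 629 in control replicate 2 against 509 to 526, and a mixed part at its 3′ end had 5964 in control replicate 4 against 6603 to 6672. The widest *Mapt* interval had 12110 in *Fezf2 shRNA* replicate 4 against 13090 to 13240. The log2 ratio of *Ina* to *Nefl* was -1.132 in control replicate 2 against -1.373 to -1.36, and -1.545 in *Fezf2 shRNA* replicate 2 against -1.391 to -1.36. The log2 ratio of *Map2* to *Mapt* was 3.276 in control replicate 4 against 3.535 to 3.57.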

How the results depend on the processing

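None of the 10 genes passed the threshold in the alternatives run, both DESeq2 fits and the replicate block included, and 174 of 200 alternative fold changes had the direction reported. The labels do not say whether same-numbered libraries are paired. Deviations of same-numbered libraries correlated at 0.303, 0.09, -0.133 and 0.167. Without the correlations of differently numbered libraries beside them, these values cannot decide it.

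The calls over all genes (205 increased, 13 decreased) depended on the fit: 107 and 4 with a filter of 1 CPM, 82 and 3 with no filter, 645 and 89 in DESeq2 with its prior, 658 and 94 without it, 84 and 5 with the replicate block, 0 and 2 with the gene-length offset, 1 and 1 with block and offset, and 195 and 13 in edgeR's legacy fit. Leaving out 1 library gave 0 (without control replicate 1) to 367 (without control replicate 2) increased and 0 to 34 decreased genes. Over the lists (5 increased, 0 decreased), the genes called increased numbered 2 with library totals, 2 with a filter of 1 CPM, 0 with no filter, the replicate block, the offset or both, and 8 and 9 in DESeq2 with and without its prior, with 2 and 2 decreased. Leaving out 1 library gave 0 to 6 increased and 0 to 1 decreased.

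Signs turned with the gene-length offset, and with block and offset, for *Nefl* (0.024 and 0.023), *Nefm* (0.052 and 0.072), *Map1b* (-0.082 and -0.076), *Map2* (-0.178 and -0.176), *Mapt* (-0.031 and -0.03) and *Tubb3* (0.022 and 0.01). With library totals *Map1b* was -0.019 and *Map2* -0.024, and with the widest transcript *Mapt* was -0.066 and the *Map2* to *Mapt* ratio 0.074. Leaving out 1 library gave -0.152 to 0.107 for *Nefm*, -0.045 to 0.119 for *Map1b*, -0.041 to 0.044 for *Map2*, -0.192 to 0.018 for *Tubb3* and -0.036 to 0.171 for the *Nefm* to *Nefl* ratio.

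Intronic parts (16 increased, 5 decreased) gave 28 and 12 with the replicate block, 637 and 12 with the library sizes of the gene fit, 2 and 15 at no more than 1% exonic bases, and 0 to 67 and 0 to 36 without 1 library. Exonic parts gave 1 increased with the block and 0 to 2 without 1 library. The causes were not tested.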
